A study of Mus musculus with 37 samples.

Results

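Bone marrow taken after a single social defeat was compared with marrow of undefeated mice, in 4 once-defeated and 3 control libraries out of 37 libraries of marrow and spleen. The members are all marrow libraries that the labels give as 1 defeat or as control. All mice were wild-type C57BL/6N, and cells were flushed from the femur, so each library is RNA of a mixed population of developing blood cells and the stroma that came with them. The 4 once-defeated libraries are called D15, D16, D17 and D18 and the 3 controls C1, C2 and C4, as in the labels. Further marrow libraries after 4 defeats (3 libraries) and 10 defeats (5 libraries), at 1 defeat per day, and after 10 defeats and 1 week of rest (4 libraries) served to follow what came after the first defeat. Age, sex and the time between defeat and collection are not given in the sources used here. No source states more of the replicates than that they are biological, and which of them shared a cage or a collection day is not given.

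Social defeat places a mouse with an aggressive opponent and activates both the adrenal glucocorticoid axis and sympathetic nerves, which also reach the marrow. Cells answer a sudden stimulus first with immediate early genes, whose transcripts appear quickly and decay quickly, while glucocorticoids switch genes on and off through their nuclear receptor. Repeated defeat is known for pushing marrow towards myeloid cells, such as neutrophils and monocytes.

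The marrow identity of the 7 libraries was checked against its markers. Mpo, which encodes the granule enzyme myeloperoxidase of early neutrophils, had values of 553 to 891, and Hbb-bs, a beta globin of red cells, 121697 to 170647. The B cell receptor gene Cd79a had 144 to 337, and the muscle genes Acta1 and Ckm stayed below 0.52 in every library. Values are the deposited abundances, in arbitrary units, with totals from 890337 in C4 to 1073108 in D17 over the 7 libraries. The steps between low values gave estimated depths of 8.95 to 12.4 M reads in once-defeated libraries, against 11.7 to 24.3 M reads in controls. Genes with a value of at least 1 numbered 11613 ± 268 in once-defeated and 11880 ± 133 in control marrow (SD, n = 4 and 3, exact permutation test, two-sided p = 0.2, where 0.0286 is the smallest p that 35 arrangements allow).

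Library D17 stood apart from the other 6. In it 613 genes lay more than 1 log2 unit from their mean in the other 6 libraries, against 131 to 136 genes for the other once-defeated libraries and 72 to 157 for controls. The calprotectin genes S100a8 and S100a9, abundant in neutrophils, took 8.56% of the total in D17 and 4.52% to 5.11% in D15, D16 and D18, against 4.41% to 4.80% in controls. On the first principal component of all 19 marrow libraries (43.1% of the variance) D17 scored 1.86 while D15, D16 and D18 scored -32.1 to -24.3 and controls -36.4 to -29.3. Results that moved most without D17 are therefore also given without it.

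A single defeat moved the marrow transcriptome little. Of 12442 genes tested with limma on log2(value + 1), 1 passed an adjusted p of 0.05 (0.00804%), a pseudogene that fell. At an unadjusted p under 0.05 there were 535 genes (4.3%), 93 higher (0.747%) and 442 lower (3.55%). Of all genes 4834 (38.9%) had a difference above 0. This share was 55.3% under quantile normalization and 53.2% under median-ratio rescaling, where the median turned to 0.02 and 0.01. With equal totals the median was -0.13, lower than in the main fit. The balance of directions thus depends on the scaling. The median difference, once-defeated minus control, was -0.05 on the log2 scale, and 87 genes differed by more than 1 log2 unit. The 95% interval of the difference lay within 1 log2 unit either way for 11493 genes (92.4%) and within 0.5 for 7438 genes (59.8%). Because 1 was added to each value, 1 unit on this scale stands for more than 2-fold in genes of low value. The libraries of the groups did not overlap for 275 genes that were higher after 1 defeat (2.21%) and for 538 that were lower (4.32%), or 6.53% in either direction, and counts of members with groups apart are read against these shares.

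**Figure D1:**
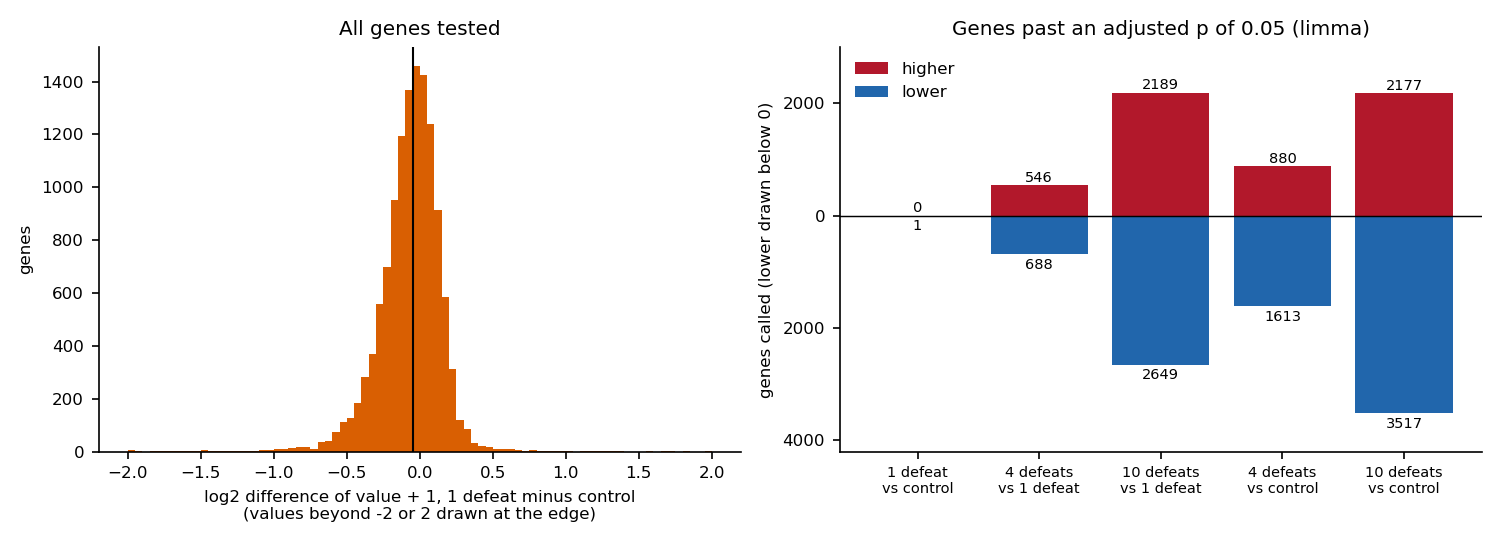
Left, histogram of the log2 difference of value + 1 between once-defeated and control marrow over the 12442 genes tested (x axis, log2 units; y axis, number of genes; black line, median of -0.05). Right, number of genes past an adjusted p of 0.05 (limma) that were higher (red) or lower (blue, drawn downwards) in each comparison; 1 gene was called after 1 defeat, against 2493 after 4 defeats and 5694 after 10 defeats relative to controls.

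The gene that fell was Gm27038, annotated as a processed pseudogene on chromosome 17 (GRCm38, 94756698 to 94756872, minus strand). It was listed at 0, 0, 1.09 and 0 in D15, D16, D17 and D18, against 2.91, 3.16 and 3.80 in C1, C2 and C4. The log2 difference was -1.83 ± 0.28 (SE, limma, adjusted p = 0.0464). Its annotated span of 175 bases is shorter than the 200-base fragment assumed for the depth estimate, and whether its reads came from the gene it was copied from was not tested. The call was lost in every refit that left out 1 library except that without D17.

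Among 22 immediate early genes tested Fos had the largest difference after 1 defeat. It encodes a subunit of the transcription factor AP-1 and lies on chromosome 12 (85473890 to 85477273, plus strand). Dusp1, on chromosome 17, encodes a phosphatase that switches off MAP kinases and is also a glucocorticoid target. Junb, on chromosome 8, encodes another AP-1 subunit. These were the immediate early genes whose once-defeated libraries all lay above all controls, so the 250 bases before their start are shown (RefSeq promoter table, GRCm38.p6, 5′ to 3′ on each gene's strand). Capitals mark TGACGT, the first part of the cyclic AMP response element TGACGTCA, searched on both strands, and the TATA box TATAAA, searched on the gene's strand. The half-site of the element is the shorter TGACG, which was not searched and is not marked by itself.
Fos, chr12:85473640-85473889, plus strand: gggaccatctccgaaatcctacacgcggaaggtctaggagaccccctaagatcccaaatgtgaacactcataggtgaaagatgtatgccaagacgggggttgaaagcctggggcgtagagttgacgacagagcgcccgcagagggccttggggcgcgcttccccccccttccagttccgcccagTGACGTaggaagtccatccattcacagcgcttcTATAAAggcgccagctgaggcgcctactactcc
Dusp1, chr17:26508473-26508722, minus strand: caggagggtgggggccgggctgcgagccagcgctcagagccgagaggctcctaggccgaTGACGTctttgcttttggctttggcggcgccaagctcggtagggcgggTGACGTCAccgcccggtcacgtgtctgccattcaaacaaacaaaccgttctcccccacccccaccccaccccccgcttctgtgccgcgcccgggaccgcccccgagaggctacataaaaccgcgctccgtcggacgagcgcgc
Junb, chr8:84978749-84978998, minus strand: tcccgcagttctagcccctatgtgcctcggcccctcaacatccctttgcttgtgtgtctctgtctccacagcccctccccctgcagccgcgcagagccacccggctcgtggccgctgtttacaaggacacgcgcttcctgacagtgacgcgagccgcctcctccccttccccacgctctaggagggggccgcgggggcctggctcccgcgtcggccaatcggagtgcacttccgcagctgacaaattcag

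The Fos window held TGACGT beginning 66 bases before the start and TATAAA beginning 33 bases before it. In the Dusp1 window TGACGT began 191 bases and 143 bases before the start, the second of these as part of the full palindrome TGACGTCA, which also matches on the other strand. The Junb window held neither set of letters. Unmarked TGACG followed by a base other than T occurs in both the Fos and the Junb window. Among 32851 promoters of the same length, TGACGT was found in 6.47%, TGACGTCA in 1.55% and TATAAA in 7.59%. These are matches of letters and say nothing of which factor was bound.

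Fos had values of 23.7, 39.8, 9.59 and 5.83 in D15, D16, D17 and D18, against 2.42, 2.92 and 2.13 in C1, C2 and C4. All 4 once-defeated libraries were above all 3 controls, with D15 and D16 far above D17 and D18. The log2 difference was 2.24 ± 0.53 (SE, 95% interval 1.13 to 3.35), and it did not pass the adjustment over all genes (limma, adjusted p = 0.904). It stayed between 1.80 and 2.66 over the refits without 1 library, with other scalings and with a pseudocount of 0.1. Without D17 it was 2.45.

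Dusp1 repeated the pattern of D15 and D16. Its values were 46.6, 61.1, 25.7 and 24.2 after 1 defeat, against 22.7, 19.4 and 22.8 in controls, so D17 and D18 lay just above the control range. The log2 difference was 0.73 ± 0.34 (limma, adjusted p = 0.904). Junb was at 21.2, 39.2, 20.7 and 23.2 in once-defeated and at 20.3, 18.9 and 15.7 in control libraries, a difference of 0.45 ± 0.24 (limma, adjusted p = 0.904). For Junb D16 was high and the other 3 libraries were close to the upper control.

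The remaining immediate early genes did not separate. Ier2, an early gene of growth factor signalling, had 34.2, 55.2, 41.8 and 38.9 after 1 defeat, against 37.1, 36.1 and 28.4 in controls, again with D16 as the highest library and with D15 inside the control range. Egr1, a zinc finger factor, had 4.94, 7.50, 3.79 and 2.55 against 2.78, 3.65 and 3.02, with D18 below every control. Nr4a1, an orphan nuclear receptor, differed by 0.03 ± 0.23 on the log2 scale, Jun by -0.20 ± 0.14 and Zfp36, which destabilises cytokine transcripts, by 0.03 ± 0.18. Of the 28 genes on the list 22 were tested, and Fosb, Fosl1, Egr2, Nr4a2, Nr4a3 and Maff were below the filter. No member was called, and 3 of 22 had groups apart on the higher side, against 2.21% of all genes. On the higher side 2 of 22 had an unadjusted p under 0.05, against 0.747% of all genes. The median difference was 0.02, against -0.05 over all genes.

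**Figure D2:**
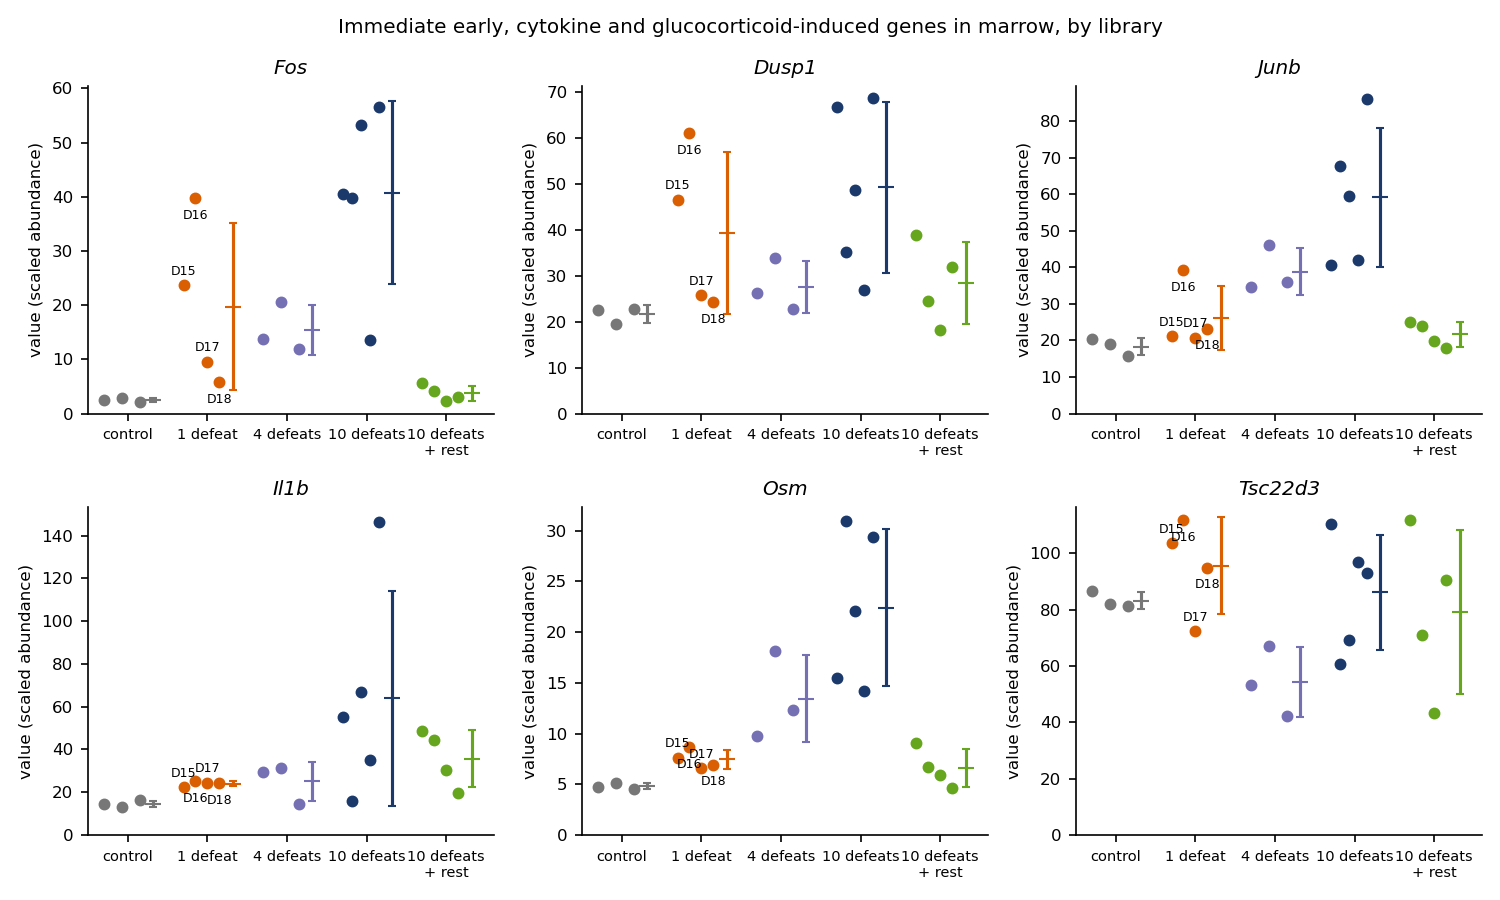
Values by library (points; y axis, abundance scaled per library) with mean ± SD (bars) in control marrow, after 1, 4 and 10 defeats and after 10 defeats and rest, for 3 immediate early genes, the cytokines Il1b and Osm, and the glucocorticoid-induced gene Tsc22d3. All 4 once-defeated libraries lie above the controls for Fos, Dusp1, Junb, Il1b and Osm, and D15 and D16 are the highest of the 4 for Fos and Dusp1; Tsc22d3 overlaps.

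Fos and Junb were higher after 10 defeats than after 1. After 4 defeats Fos was at 13.8, 20.6 and 11.8, and after 10 defeats at 40.6, 39.9, 53.2, 13.5 and 56.5, while the rested libraries had 2.32 to 5.56. The difference of 4 defeats from 1 defeat was -0.04 ± 0.53 and that of 10 defeats from 1 defeat 1.20 ± 0.46 (limma, adjusted p = 0.973 and 0.0496). For Junb the step from 1 to 10 defeats was 1.14 ± 0.21 (adjusted p = 0.000795) and for Dusp1 0.33 ± 0.30 (adjusted p = 0.396). The Fos step only just passed the threshold, and the Dusp1 step did not pass it.

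Glucocorticoid-induced genes showed no shared rise. Fkbp5, a chaperone of the glucocorticoid receptor and one of its standard targets, had 24.2, 35.5, 28.9 and 29.8 after 1 defeat, against 47.9, 30.3 and 37.0 in controls, a difference of -0.35 ± 0.26. Tsc22d3, which encodes the glucocorticoid-induced leucine zipper, had 103, 112, 72.3 and 94.9 against 86.6, 81.9 and 81.1, with 3 libraries above and D17 below all controls. Its difference was 0.18 ± 0.26, and 0.31 without D17. Neither gene separated the groups.

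Other targets were as close. Per1, a clock repressor that glucocorticoids induce, differed by -0.18 ± 0.41, Ddit4, an inhibitor of mTOR signalling, by -0.19 ± 0.42, and Klf9, a transcription factor, by -0.24 ± 0.21. Zbtb16, a zinc finger factor of progenitors and innate lymphocytes, was the target with groups apart on the lower side, at 0.809, 0.813, 0.666 and 0.857 against 1.29, 1.08 and 1.49 (-0.35 ± 0.13, limma, adjusted p = 0.904). Of 26 targets tested none was called, and 22 had an interval within 1 log2 unit. On each side 1 of 26 had groups apart (Dusp1 higher, Zbtb16 lower), against 2.21% and 4.32% of all genes. Their median of -0.05 equalled that of all genes.

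The stress axis receptors and regulators had narrow intervals. Nr3c1, the glucocorticoid receptor, differed by -0.01 ± 0.15 on the log2 scale. All 15 receptor and regulator genes tested had an interval within 1 log2 unit. Among 15 clock genes none was called or had groups apart, and Clock itself differed by -0.23 ± 0.13.

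The cytokine genes Il1b and Osm separated the groups. Il1b, which encodes the inflammatory cytokine interleukin 1 beta, had 22.3, 25.2, 24.5 and 24.3 in D15, D16, D17 and D18, against 14.4, 13.1 and 16.2 in C1, C2 and C4. The once-defeated libraries stood close together and above all controls, with means of 24.1 ± 1.2 and 14.5 ± 1.5 (SD, n = 4 and 3). The log2 difference was 0.69 ± 0.51 (limma, adjusted p = 0.904). This standard error is set by the spread shared over 5 groups, and Il1b ran from 15.8 to 146 after 10 defeats. With only the 2 groups in the fit the standard error was 0.10 and the adjusted p = 0.53 (limma).

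Osm encodes oncostatin M, a cytokine of the gp130 family made by myeloid cells. It had 7.61, 8.68, 6.58 and 6.95 after 1 defeat, against 4.73, 5.16 and 4.54 in controls, again without overlap. The difference was 0.54 ± 0.25 (95% interval 0.01 to 1.06, limma, adjusted p = 0.904) and 0.59 without D17. Osm was at 9.80, 18.2 and 12.3 after 4 defeats and at 14.2 to 31.0 after 10 defeats. The step from 1 to 10 defeats was 1.41 ± 0.22 (limma, adjusted p = 0.000299) and that from 1 to 4 defeats 0.74 ± 0.25 (adjusted p = 0.0673).

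The wider inflammatory list had no shared direction. Of 25 tested, 2 had groups apart on the higher side (Il1b and Osm) and 1 on the lower side (Il4ra, a receptor chain for interleukin 4, -0.24), and the median was -0.04. Among all genes 2.21% were apart on the higher and 4.32% on the lower side. Tnf, another inflammatory cytokine, had 4.65, 4.32, 3.17 and 5.48 after 1 defeat, against 4.97, 7.61 and 4.61 in controls. Saa3, an acute phase gene, was below 1 in all 4 once-defeated libraries, and its difference of -1.74 ± 0.93 came with a value of 41.1 in C4, against 1.03 and 0.824 in C1 and C2. Il6, Il10 and Ptgs2 were below the filter. Among 30 interferon-stimulated genes 3 had groups apart on the lower side (Oasl2, Irf9 and Xaf1), against 4.32% of all genes. The median of the 30 was -0.11, and 4 differences were above 0, against 38.9% of all genes.

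Neutrophil genes were higher in D17 than in the other libraries. The 30 mature neutrophil genes averaged 5.58, 5.71, 6.13 and 5.77 (mean log2(value + 1)) in D15 to D18, against 5.70, 5.64 and 5.64 in controls, so that D15 was the lowest of the 7 and D17 the highest. In bulk RNA a smaller number of cells of a type and less RNA per cell cannot be told apart, here and in the lists that follow. Their median difference was 0.11, and -0.00 without D17. None was called, and Il1b and Mxd1 were the 2 members with groups apart, on the higher side, against 2.21% of all genes. G0s2, a regulator of fat breakdown expressed in neutrophils, had 18.7, 39.7, 32.9 and 28.2 against 19.3, 20.8 and 14.1, with D15 inside the control range and the other 3 above it.

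S100a8, a subunit of calprotectin, was at 43827 in D17 and at 19058, 21200 and 23153 in D15, D16 and D18, against 19175, 20470 and 18173 in controls. Its difference was 0.39 ± 0.28, 0.13 without D17, and -0.06 under quantile normalization. Genes of the primary granules, which promyelocytes make, had a list median of 0.22, the highest of the 39 with all libraries. Without D17 it was 0.10, below the ribosomal protein and erythroid medians of 0.11 each. Mpo had 698, 706, 891 and 657 after 1 defeat, against 651, 606 and 553 in controls, with groups apart by a narrow margin (0.28 ± 0.22). Elane, neutrophil elastase, overlapped (438, 498, 574 and 435 against 449, 379 and 346). None of the 15 primary granule genes was called.

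Granule genes rose at the next step. After 4 defeats relative to 1 defeat 12 of 15 primary granule genes were higher and none was lower (limma, adjusted p under 0.05, against 4.39% of all genes higher), with a median of 0.95. Mature neutrophil genes were higher in 13 of 30 and lower in 1 of 30 at that step, and higher in 26 of 30 after 10 defeats relative to 1 (17.6% of all genes). Lrg1, a secreted glycoprotein of neutrophils, had 67.8, 84.9, 115 and 86.1 after 1 defeat, against 87.9, 81.7 and 77.9 in controls (0.08 ± 0.35). It rose by 2.01 ± 0.35 after 4 defeats relative to 1 (adjusted p = 0.0066). The 4-against-1 calls lean on single libraries: 1234 genes were called with all libraries, and 20 without the 4-defeat library D12.

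The 22 monocyte genes averaged 4.97, 4.89, 5.21 and 5.02 (mean log2(value + 1)) in D15 to D18, against 5.05, 5.10 and 5.03 in controls. D15, D16 and D18 lay below all controls and D17 above them. The median difference was -0.02, and -0.10 without D17, with none called and none with groups apart. Vcan, a proteoglycan of inflammatory monocytes, had 1.98, 1.34, 2.27 and 3.66 after 1 defeat, against 2.97, 2.64 and 2.32 in controls, and rose by 2.99 ± 0.33 after 10 defeats relative to 1 (limma, adjusted p = 5.2e-05). Cxcr4, the receptor that holds leukocytes in marrow, had 215, 209, 196 and 199 against 196, 207 and 209, a difference of 0.01 ± 0.11 whose interval ran from -0.23 to 0.24. Its ligand Cxcl12, made by stroma, had 80.6, 72.0, 45.9 and 60.2 against 102, 63.5 and 94.6, with D17 and D18 below all controls (-0.42 ± 0.47).

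Lymphoid genes leaned lower, more so with D17. The 25 mature B cell genes averaged 5.81, 5.66, 4.94 and 5.92 (mean log2(value + 1)) after 1 defeat, against 5.86, 6.20 and 5.87 in controls. D18 lay within the control range, D15 and D16 just below it and D17 far below. All 25 differences were negative, while 4834 of 12442 genes (38.9%) were above 0, and the median was -0.34, or -0.16 without D17. None was called, and Ighm, Blk and Cd55 had groups apart on the lower side, as 3 of 25, against 4.32% of all genes. Only 5 of the 25 had an interval within 1 log2 unit, against 92.4% of all genes.

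B cell precursor genes had a smaller median difference than mature B cell genes, a contrast that was not tested. Vpreb3, which takes part in assembling the B cell receptor of precursors, had 157, 224, 150 and 180 after 1 defeat, against 171, 233 and 168 in controls. Il7r, the receptor for the growth factor of lymphoid precursors, had 22.6, 19.2, 16.4 and 17.7 against 19.1, 23.0 and 24.5 (-0.22 ± 0.40). The median of the 24 precursor genes was -0.11, and -0.04 without D17. By contrast 16 of the 24 were lower after 4 defeats than after 1 (5.53% of all genes lower), and Il7r fell by 2.05 ± 0.40 at that step (limma, adjusted p = 0.0098). The difference between the 2 steps was not itself tested.

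T and natural killer genes leaned lower also without D17. The 22 T cell genes averaged 2.94, 2.65, 2.46 and 3.08 after 1 defeat, against 3.01, 3.04 and 3.09 in controls, with a median difference of -0.24 (-0.15 without D17) and 21 of 22 not above 0. Groups were apart on the lower side for 4 of 22 members, among them Trac, Cd8b1 and Lat, against 4.32% of all genes, yet Cd3e, the signalling chain on every T cell, overlapped (7.34, 4.38, 3.35 and 9.08 against 5.60, 5.33 and 6.43). Cd8b1, a chain of the CD8 coreceptor of cytotoxic T cells, had 3.83, 2.55, 2.09 and 3.78 against 4.72, 4.27 and 4.57 (-0.47 ± 0.22, limma, adjusted p = 0.904).

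The 19 natural killer and cytotoxic genes averaged 2.27, 2.27, 2.36 and 2.56 after 1 defeat, against 2.69, 2.62 and 2.51 in controls, where D18 alone reached into the control range. Their median was -0.24 with and without D17, and it stayed between -0.32 and -0.15 over the refits without 1 library and the other scalings. Klrd1, a receptor chain on natural killer cells, had 10.1, 9.97, 5.50 and 10.4 against 16.6, 14.1 and 12.9, without overlap (-0.66 ± 0.27, limma, adjusted p = 0.904). Klrb1c, which encodes the NK1.1 surface marker, had 4.95, 4.99, 5.02 and 5.31 against 5.95, 6.08 and 6.19, and Klrk1 and the pore-forming Prf1 were also apart. None of the 19 was called, and 4 of 19 had groups apart on the lower side, against 4.32% of all genes.

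Major histocompatibility class II genes, which present antigen on B cells, dendritic cells and macrophages, had a median of -0.37 over 11 genes, all negative and none called or apart. H2-Aa had 235, 176, 142 and 236 after 1 defeat, against 271, 265 and 218 in controls. Without D17 the median was -0.20. Only 3 of the 11 had an interval within 1 log2 unit.

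**Figure D3:**
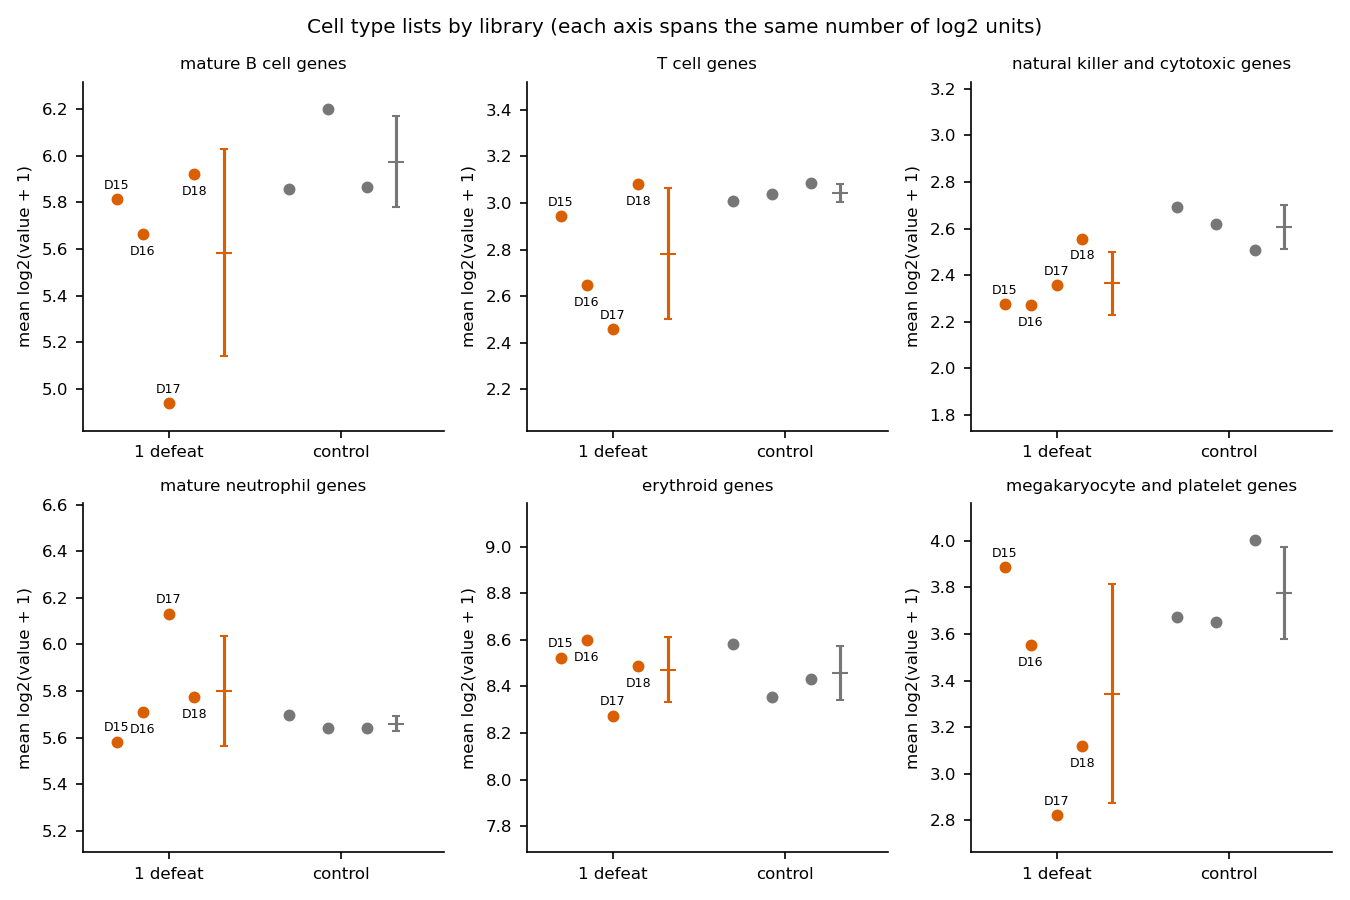
Mean log2(value + 1) over the members of 6 cell type lists in each once-defeated (orange, labelled) and control (grey) marrow library, with mean ± SD of the libraries (bars). D17 is the lowest once-defeated library for the mature B, T, erythroid and megakaryocyte lists and the highest of all 7 for mature neutrophil genes.

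Red cell genes were close to controls. The 32 erythroid genes averaged 8.52, 8.60, 8.27 and 8.49 after 1 defeat, against 8.58, 8.35 and 8.43 in controls, with D17 the lowest of the 7. The median difference was 0.03 with 22 of 32 above 0, and 0.11 without D17. It turned to -0.02 under quantile normalization. Haemoglobin transcripts took 41.7 ± 3.94% of the total in once-defeated and 42.1 ± 2.96% in control marrow (SD, n = 4 and 3, exact permutation test, two-sided p = 0.914). After 10 defeats relative to 1, 28 of the 32 were lower (limma, adjusted p under 0.05, against 21.3% of all genes). After 4 defeats relative to 1, 1 of 32 was lower, against 5.53% of all genes.

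Megakaryocyte and platelet genes had a median of -0.41 over 23 genes, the lowest of the 39 lists with all libraries, with 22 of 23 not above 0. The libraries were spread widely, at 3.89, 3.55, 2.82 and 3.12 (mean log2(value + 1)) in D15 to D18, against 3.67, 3.65 and 4.00 in controls. Itga2b, the platelet integrin chain, had 36.8, 39.3, 10.5 and 24.8 against 35.7, 34.9 and 40.4, so that D17 and D18 were low and D15 and D16 were not. Gp1ba, a platelet receptor for von Willebrand factor, had 6.79, 4.69, 1.92 and 2.95 against 6.08, 5.94 and 8.87 (-0.72 ± 0.35). No member was called or had groups apart, and 9 of 23 had an interval within 1 log2 unit. Without D17 the median was -0.23, no longer the lowest, and Gp1ba differed by -0.49. None of the 23 was called after 4 defeats relative to 1, against 9.92% of all genes.

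Macrophage and stromal genes also had negative medians. Among 19 tissue macrophage genes the median was -0.30 (-0.25 without D17). C1qc, Cd5l and Nr1h3 had groups apart on the lower side, as 3 of 19, against 4.32% of all genes. Nr1h3, the sterol-sensing receptor LXR alpha, had 3.07, 3.43, 2.72 and 3.20 after 1 defeat, against 3.55, 4.24 and 6.91 in controls, where C4 was the highest. In the list as a whole C4 was also highest, at 4.62 against 4.03 to 4.15 in once-defeated libraries and 4.26 and 4.15 in C1 and C2, and without C4 the median was -0.12. The 21 stromal niche genes had a median of -0.18, which was -0.06 under quantile normalization. Col1a1, the main bone collagen, ran from 2.07 to 7.64 after 1 defeat, against 1.50 to 11.2 in controls, a spread within each group larger than any difference between them.

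Ribosomal and oxidative phosphorylation genes leaned slightly higher, mainly in D16 and D17. The 47 ribosomal protein genes averaged 9.40, 9.65, 9.76 and 9.43 (mean log2(value + 1)) in D15 to D18, against 9.47, 9.37 and 9.32 in controls. D15 and D18 thus lay inside the control range. Of the 47 genes 45 were above 0, against 38.9% of all genes, and 10 had groups apart on the higher side, against 2.21%. These genes share their libraries. The median was 0.18, or 0.11 without D17 and 0.06 under quantile normalization. Rps3, a small subunit protein, had 710, 821, 977 and 688 after 1 defeat, against 681, 659 and 640 in controls (0.26 ± 0.11, limma, adjusted p = 0.904, and 0.16 without D17), and Rpl11, a large subunit protein, 557, 707, 653 and 589 against 549, 528 and 513. As a share of the total, ribosomal protein transcripts were 4.08 ± 0.356% in once-defeated and 3.85 ± 0.137% in control marrow (SD, n = 4 and 3, exact permutation test, two-sided p = 0.371). Nuclear-encoded oxidative phosphorylation genes had a median of 0.14 with 27 of 30 above 0 and none called, and a median of 0.06 without D17. They averaged 6.79, 6.96, 7.09 and 6.79 in D15 to D18, against 6.87, 6.77 and 6.74 in controls, again with D15 and D18 inside the control range.

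Genes of cell division stayed within narrow intervals. Mki67, a marker of cycling cells, had 150, 115, 130 and 122 after 1 defeat, against 125, 116 and 144 in controls (0.01 ± 0.14, 95% interval -0.29 to 0.30). All 26 S phase and all 25 G2 and M phase genes had an interval within 1 log2 unit, with medians of 0.10 and 0.07. After 10 defeats relative to 1, 21 of 26 S phase and 18 of 25 G2 and M phase genes were lower (limma, adjusted p under 0.05, against 21.3% of all genes).

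Lipid mediator genes, which give the series its theme, were not called in any case. Alox5, the enzyme that starts leukotriene synthesis, had 61.5, 58.5, 65.0 and 72.1 after 1 defeat, against 57.6, 66.3 and 58.0 in controls (0.08 ± 0.18). Its partner Alox5ap, which hands arachidonic acid to it, differed by 0.13 ± 0.23, or -0.05 without D17, and Alox15 by 0.08 ± 0.35. Alox12, the platelet lipoxygenase, had the largest difference of the lipoxygenase list, at 10.6, 6.95, 2.41 and 4.71 after 1 defeat, against 8.44, 8.63 and 13.6 in controls. The groups overlapped, with D15 inside the control range, and the difference was -0.76 ± 0.43 (limma, adjusted p = 0.904), or -0.45 without D17. Alox5ap rose by 1.05 after 4 defeats and by 1.41 after 10 defeats relative to 1 (limma, adjusted p = 0.014 and 0.00019).

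Hpgds, a prostaglandin D synthase found in mast cells, was lower in every once-defeated library. The 21 eosinophil, basophil and mast cell genes tested had a median of 0.13 (0.04 without D17). Of these 16 were above 0, against 38.9% of all genes, and Hpgds had the lowest difference. Hpgds had 1.90, 1.87, 1.66 and 1.65 after 1 defeat, against 2.84, 3.56 and 3.11 in controls, with close libraries in each group. The difference was -0.59 ± 0.19 (95% interval -0.98 to -0.19, limma, adjusted p = 0.904), and -0.57 without D17. After 4 defeats it was at 1.83, 0.598 and 0.995, and after 10 defeats at 1.02 to 2.04, neither called against 1 defeat (adjusted p = 0.16 and 0.36). Ptgs1, cyclooxygenase 1, did not follow (0.01 ± 0.17). Ptger1, a prostaglandin E2 receptor, was also apart on the lower side (-0.37 ± 0.16, and -0.24 without D17). So was Ggt5, which cleaves leukotriene C4 (-0.48 ± 0.21, and -0.25 without D17), while Lta4h, which makes leukotriene B4, was apart on the higher side (0.19 ± 0.22). Of 15 leukotriene and 16 prostanoid genes none was called, and all 16 prostanoid genes had an interval within 1 log2 unit. Among 30 genes of cholesterol synthesis 29 did, with a median of -0.01.

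**Figure D4:**
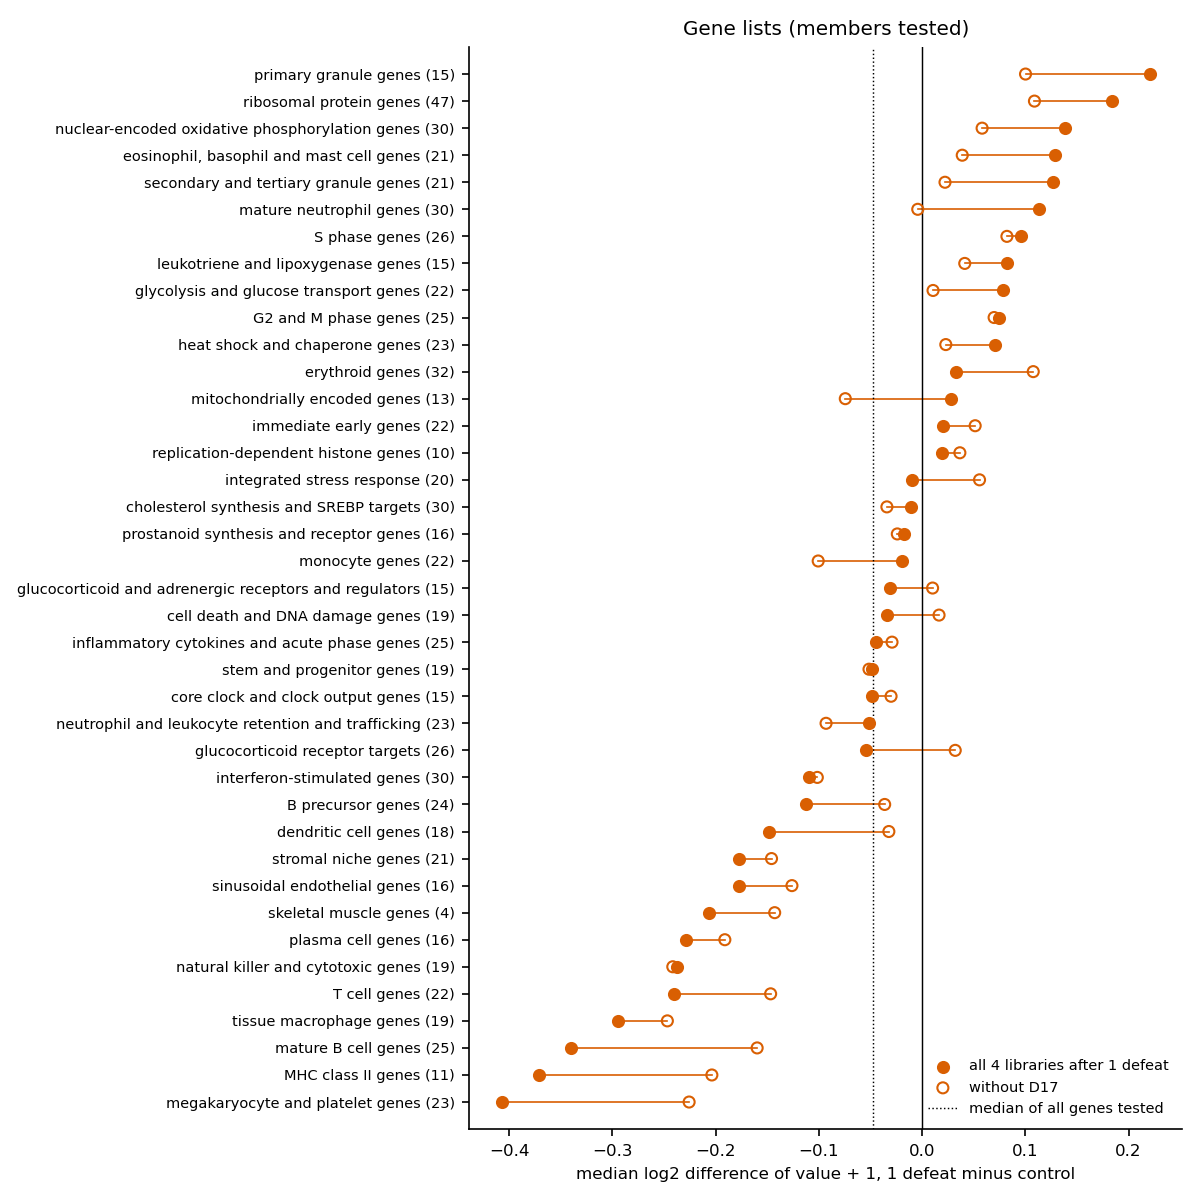
Median log2 difference of value + 1 (x axis, once-defeated minus control) over the tested members of 39 gene lists (rows, number of members in parentheses), with all 4 once-defeated libraries (filled) and without D17 (open); the dotted line is the median of all genes. Medians run from -0.41 for megakaryocyte and platelet genes to 0.22 for primary granule genes, and most of them are nearer 0 without D17.

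Over the 39 lists no member was called. The smallest adjusted p of any member was 0.904, and list medians stayed between -0.41 and 0.22. Among single genes outside the lists, those with the smallest p and groups apart differed by modest amounts. Babam2, a subunit of a BRCA1-associated complex, had 26.1, 26.7, 35.6 and 31.5 after 1 defeat, against 21.0, 20.9 and 22.5 in controls (0.45 ± 0.13). Lars2, the mitochondrial leucyl-tRNA synthetase, had 832, 959, 1063 and 854 against 749, 539 and 736 (0.47 ± 0.13). On the lower side Paox, a polyamine oxidase, had 4.78, 6.98, 5.03 and 5.47 against 7.08, 7.98 and 8.42 (-0.44 ± 0.11), and Mbtps1, the protease that activates sterol regulatory factors, 21.7, 20.3, 17.9 and 18.1 against 25.3, 26.8 and 28.2 (-0.44 ± 0.13). Each of these had an adjusted p of 0.904 (limma).

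To ask what precedes the response to repeated defeat, genes were taken from a comparison that holds neither control nor once-defeated libraries, 10 defeats against 10 defeats and rest. Genes called there with a difference of at least 1 log2 unit numbered 62 higher and 292 lower after 10 defeats, out of 984 higher (7.91%) and 1716 lower (13.8%) genes called. Among the 62 were 6 mature neutrophil genes and the immediate early genes Fos, Junb and Ier3. Among the 292 were 17 of 23 megakaryocyte genes, 14 of 24 B precursor genes, 8 of 21 stromal genes and 54 immunoglobulin or T cell receptor segments.

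The 62 higher genes averaged 3.55, 3.64, 4.02 and 3.62 (mean log2(value + 1)) in D15 to D18, against 3.58, 3.56 and 3.59 in controls. D17 was above all controls and the others were near them. Their median difference after 1 defeat was 0.10 with 45 of 62 above 0 (72.6%, against 38.9% of all genes), and without D17 it was -0.00 with 30 of 62 above 0 (48.4%, against 41.5%). Fos, Osm, Junb, Gyg and Gm20594 had groups apart on the higher side, as 5 of 62, against 2.21% of all genes. Wfdc17, a secreted protein of myeloid cells in this set, had 25.6, 21.2, 52.9 and 33.4 against 32.7, 31.6 and 30.8.

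The 292 lower genes averaged 3.51, 3.34, 2.92 and 3.19 in D15 to D18, against 3.49, 3.51 and 3.75 in controls. D15 lay with the controls, D16, D18 and D17 below them, and C4 above the other controls. The median difference was -0.30 with 263 of 292 negative (90.1%, against 61.1% of all genes). Without D17 it was -0.19 with 238 negative (81.5%, against 58.5%), and without C4 -0.22 with 243 negative (83.2%, against 57.6%). Under quantile normalization 81.8% were negative, against 44.7% of all genes, and under median-ratio rescaling 84.9%, against 46.8%. None of the 292 was called, and 21 of the 292 had groups apart on the lower side, against 4.32% of all genes. The members of each set share their libraries, so these counts are a description of 7 libraries.

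The lower set averaged 2.04 to 3.01 in the 3 libraries after 4 defeats, 1.64 to 2.54 after 10 defeats and 3.42 to 3.88 after rest, the last of these around the control range. The 23 megakaryocyte and platelet genes, 17 of them in this set, averaged 4.16 to 5.06 after rest, above the 3.65 to 4.00 of controls. Their choice thus also reflects values above controls after rest. After 10 defeats relative to controls 7 of the 23 were called lower and 2 higher (limma, against 28.3% and 17.5% of all genes). The 24 B precursor genes, 14 of them in this set, were at 3.17 to 3.99 after rest, below the 4.06 to 4.39 of controls. Relative to controls, which all 3 comparisons share, the medians of the lower set were -0.30 after 1 defeat, -0.88 after 4 and -1.30 after 10, and those of the higher set 0.10, 1.19 and 1.67. The values after 10 defeats are pushed outward by the choice of genes, which used those libraries. A choice from 10 defeats against 4 defeats gave 31 higher genes with a median of -0.02 after 1 defeat and 10 lower genes with a median of 0.35, in the opposite direction.

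**Figure D5:**
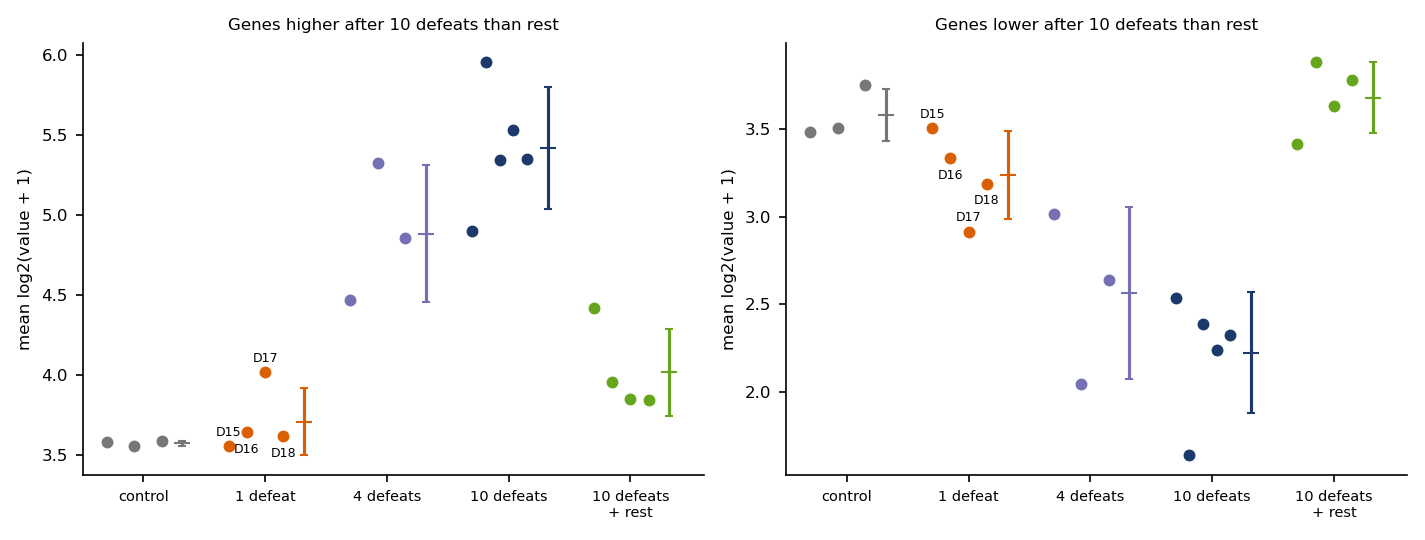
Mean log2(value + 1) per library (points) and mean ± SD of each group (bars) for the 62 genes higher (left) and the 292 genes lower (right) after 10 defeats than after 10 defeats and rest, in control marrow, after 1, 4 and 10 defeats and after rest. Once-defeated libraries lie near controls on the left except D17, and from the control range downwards on the right; the groups of 10 defeats and rest differ by the choice of genes.

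Direct comparisons with once-defeated marrow gave many calls. Relative to 1 defeat 1234 genes were called after 4 defeats (9.92%, 546 higher and 688 lower) and 4838 after 10 defeats (38.9%, 2189 higher and 2649 lower), while relative to controls 2493 (20%, with 7.07% higher and 13% lower) and 5694 (45.8%, with 17.5% higher and 28.3% lower) were. Under median-ratio rescaling the splits were 745 higher and 519 lower for 4 against 1 defeat and 2633 higher and 2168 lower for 10 against 1, so the balance of directions depends on the scaling. The median spread within the once-defeated group, as the SD of log2(value + 1), was 0.193, or 0.131 without D17, against 0.114 in controls, 0.203 after 4 defeats and 0.190 after 10.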

How the data were processed

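RNA of flushed femoral marrow was sequenced from polyadenylated, stranded libraries, per the labels' protocols. The submitters' processing notes name kallisto 0.46.1 and sleuth, without roles, and the build GRCm38. The authors deposited 1 signal per gene and library, an abundance scaled per library; the scaling is not stated, counts were not used here, and depth is an estimate from steps between low values (66.1% to 73.1% of them within 0.1 of a whole read in the 7 libraries, for an assumed fragment of 200 bases). GENCODE M21 held 99.3% of the 35885 identifiers.

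The 5 marrow groups (19 libraries) entered 1 linear model of log2(value + 1), from limma 3.58.1 under R 4.3.3 with its trend and robust options. Genes were kept if 3 or more libraries reached a value of 1. The pseudocount understates differences of low genes. The Benjamini-Hochberg adjustment ran over all genes kept, and the threshold was 0.05. Groups are called apart where every library of one lies beyond every library of the other. Shares per library were compared by an exact permutation test. The fit was tested on simulated data.

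Members, 39 gene lists and 40 fixed genes were chosen with earlier results of these data known. Named were genes past the threshold, the 10 higher and 10 lower genes of smallest p with groups apart with the higher group averaging 2 or more (without predicted genes, pseudogenes and receptor segments), up to 6 per direction of the repeated-defeat genes, 2 per list, and the fixed genes; others in the text were chosen after their values were seen. Alternatives were quantile normalization, median-ratio rescaling, equal totals, no filter, a pseudocount of 0.1, removal of the length trend, library weights, fits of the 2 groups compared, and leaving out each library. Some genes are not reported here.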

Additional observations from a re-analysis of the deposited data

Results flagged for a closer look

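In the group of 4 once-defeated libraries 9 of 131 named genes and 2 of 39 lists had 1 library far from the other 3 by Dixon's test, where chance flags about 1 in 20 groups. In 7 of the 9 genes and 1 of the 2 lists that library was D17. D17 was low for Bcl7a, a gene of B cell chromatin, at 11.8 against 23.9 to 24.8 in the other 3, for Klrd1 at 5.50 against 9.97 to 10.4, for Ggt5, which cleaves leukotriene C4, at 3.39 against 7.17 to 7.39, and for the predicted gene Gm15280 at 25.0 against 29.8 to 30.3. It was high for S100a8 at 43827 against 19058 to 23153, for the cyclin Ccne2 at 30.5 against 21.1 to 22.5, for Gm27038 at 1.09 against 0 in each of the others, and for the mean log2 level of primary granule genes at 6.96 against 6.50 to 6.56. D16 was high for Junb at 39.2 against 20.7 to 23.2. D15 was high for the predicted gene Gm10985 at 27.0 against 0 in each of the others, with controls at 34.9 to 55.2, and for the mean log2 level of leukotriene and lipoxygenase genes at 4.03 against 3.98 in each of the others. The cause of these values was not tested.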

How the results depend on the processing

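No paired analysis was possible because the once-defeated and control marrow libraries share no replicate number. Of 1 defeat against control, 1 gene was called; the count was 0 under quantile normalization, median-ratio rescaling, a pseudocount of 0.1, removal of the length trend and a fit of the 2 groups (limma, with 500, 487, 470, 489 and 516 genes at an unadjusted p under 0.05), 4 with no filter, and 0 to 2 when 1 library was left out. The 4 with no filter were Gm27038, Gm46506, Igkv3-12-1 and Or5k1b, and those 2 without D15 were Gm10985 and Gm49111. The 4-against-1 count of 1234 was 614 with equal totals, 600 with no filter, 3210 with library weights and 18 in a fit of the 2 groups, and 20 (without D12) to 2179 (without D11) when 1 library was left out, with 158 without D14, 314 without D15, 663 without D16, 472 without D18 and 1906 without D17. The 10-against-1 count was 3128 with equal totals and 3557 to 5561 when 1 library was left out. Against controls, 4 defeats gave 1120 with equal totals and 4789 with library weights, and 699 to 3060 when 1 library was left out, and 10 defeats 3792 to 5782. Between 10 defeats and rest the count was 4800 with library weights and 1325 to 3178 when 1 library was left out. The splits under quantile normalization were 630 higher and 504 lower for 4 against 1, 2401 and 2146 for 10 against 1, 1127 and 837 for 4 against control, 2763 and 2298 for 10 against control, and 1096 and 867 for 10 against rest; under median-ratio rescaling the last 3 were 1498 and 1030, 2989 and 2422, and 1490 and 1156. With 1 library left out, differences between once-defeated and control shares ran from -2.11 to 1.15 points for haemoglobin, -0.361 to 0.0979 for mitochondrial and 0.0920 to 0.379 for ribosomal protein transcripts, and from -348 to -141 genes detected. The median of the repeated-defeat genes ran from -0.0011 to 0.153 for the higher and -0.368 to -0.191 for the lower set, and was 0.349 for lower genes chosen from 10 against 4 defeats. The causes were not tested.

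With 4 and 3 libraries the exact test over libraries allows no p below 0.0286, and p values measure the spread between these libraries. Estimated depth was lower in most once-defeated libraries, which limits low genes there. Among refits of the 131 named genes 9 lost a call (all of Gm27038), 1 gained one (Gm10985 without D15), and 22 others moved by more than the spread between libraries. For 15 of the 131 genes, among them Nr3c1, Mki67, Cxcr4, Lrg1, Per1, Alox5ap, S100a8 and Wfdc17, and for 17 of 39 list medians the sign changed under at least 1 alternative.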

Other observations

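Some genes had a lower mean after 1 defeat than in controls, without being called, and were called higher after 10 defeats than after 1. The once-defeated libraries are part of both comparisons, so opposite signs are favoured by the design. Paox, the polyamine oxidase, was at 4.78 to 6.98 after 1 defeat, 7.90 to 8.48 after 4 and 8.90 to 10.7 after 10, against 7.08 to 8.42 in controls, and it was called for both 4 and 10 defeats relative to 1 (0.51 and 0.75 on the log2 scale, limma, adjusted p = 0.012 and 9.6e-05). P2ry12, the ADP receptor of platelets and microglia, was 0.77 higher after 10 defeats than after 1 (adjusted p = 0.00038) and -0.36 after 1 defeat relative to controls. Ggt5 was 0.79 higher (adjusted p = 0.0039) and -0.48, or -0.25 without D17. Fcgr1, an activating antibody receptor of monocytes, was 1.63 higher (adjusted p = 0.00022) and -0.36.

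Gm10985, on chromosome 3, was at 27.0 in D15 and at 0 in D16, D17 and D18, against 36.2, 34.9 and 55.2 in controls, and at 0 in 4 of 5 libraries after 10 defeats. Its annotated length is 81 bases, below the fragment length assumed for the depth estimate.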
